A study of Mus musculus with 12 samples.

Results

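The 40 genes described here code for enzymes and transporters of glycolysis, lactate handling, the pentose phosphate pathway, glutamine and glutamate metabolism, amino acid uptake, serine synthesis and the folate cycle, and their RNA was measured in fibroblasts of mouse embryos (MEFs), which are grown in culture. They were taken from a list of names by pathway. The list was drawn up with earlier results of these data known. Each gene was read from the probe set (the group of array probes that reports a transcript) with the highest mean over the 12 arrays. Of the 40 genes, 35 could be tested, out of 18193 genes with a probe set of their own. Gpi1, Eno1, G6pdx and Mat2a had no probe set under their own name in the annotation used, and Gapdh carried its symbol alone only on control probe sets of the manufacturer. The 12 Affymetrix MOE430 2.0 arrays fell into 4 groups of 3: wild type (WT) MEFs, MEFs labelled as having an Rb1 deletion (Rb1KO), MEFs with deletions of Rb1, p107 and p130 (TKO; p107 and p130 are the proteins of Rbl1 and Rbl2), and TKO MEFs that also carry RasG12D (TKO-Ras). None of the cells was treated, and all were harvested while growing exponentially. The study's question for these arrays was which RNAs change when the Rb family is lost. The labels name the arrays of a group biological replicates without saying whether they came from separate embryos, lines or cultures, so the p-values measure the spread between these RNA samples. How mutated Ras was brought into the TKO MEFs, and whether each genotype was more than 1 line, is not given in the sources used here.

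Glycolysis splits glucose into pyruvate, which is turned to lactate and exported or is passed on to the mitochondria, and growing cells drain its intermediates into ribose, serine and glycerol. Serine is made from a glycolytic intermediate and glutamate, and its side chain carbon is loaded onto folate, in the cytosol and in mitochondria, for the synthesis of purines, thymidylate and methionine. Glutamine, taken up through neutral amino acid transporters, supplies nitrogen for nucleotides and asparagine and, as glutamate, is exchanged for cystine, from which glutathione is made. The Rb family restrains E2F transcription factors, whose targets include many genes of nucleotide synthesis, while glycolysis genes are textbook targets of the hypoxia-inducible factor and of Myc, and transporters and serine synthesis genes are targets of the stress-induced factor Atf4.

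Of the deleted genes, Rb1 had log2 values of 8.31 to 8.70 on the WT arrays, of 7.51 to 7.74 on the arrays labelled Rb1KO and of 6.97 to 7.66 on the TKO and TKO-Ras arrays. Rbl1 was at background on the TKO and TKO-Ras arrays and had values of 8.18 to 9 on the others. Rbl2 was low not only on the TKO and TKO-Ras arrays (4.60 to 5.71) but also on the arrays labelled Rb1KO (3.80 to 4.47), against 7.54 to 7.90 on the WT arrays, so the name Rb1KO is used below for the label only. Background was set at a log2 value of 5.13, the 95th percentile of the values at olfactory receptor genes, which fibroblasts should not express. On every array 33 of the 36 members with a value were above it, Aldoc and Pfkfb3 were above it on 9 arrays each, and Slc16a3 was above it on 1. WT replicate 3 stood apart, with correlations between WT arrays of 0.9695 to 0.9946 across probe sets, and the calls it decides are also given without it. Of 12 mesenchymal and fibroblast markers, 10 to 12 had a group mean above background, and their summed linear level was 115000 to 144000 on the WT arrays, 73200 to 79300 on the Rb1KO, 86000 to 92000 on the TKO and 68400 to 72000 on the TKO-Ras arrays, so that every WT array was above every other array. Of the lists for other cells, 5 of 9 leukocyte, 5 of 7 endothelial, 4 of 7 muscle, 3 of 7 epithelial, 2 of 9 neural, 2 of 6 adipocyte and 1 of 6 cartilage and bone markers were at or below background on every array. The summed level of each of these other lists reached at most 4460 on any array. On the TKO-Ras arrays the epithelial sum was 1420 to 2220, against at most 789 on all others. Such a sum is led by its brightest markers. Between TKO-Ras and TKO MEFs 0 of the 7 epithelial markers passed as higher at an adjusted p under 0.05 from limma, and Cdh1 passed as lower. The median log2 fold change of these 7 was 0.13. The cartilage and bone sum was 2750 to 4460 on the WT arrays against at most 1470 on all others. Of that list Col2a1 and Col11a1 passed as lower in TKO and in Rb1KO against WT MEFs, while Sox9 and Acan passed as higher in Rb1KO. The neural sum was 2150 to 2310 on the WT, 836 to 1230 on the Rb1KO and TKO and 1250 to 2120 on the TKO-Ras arrays. Its markers also split, Map2, S100b and Fabp7 passing as lower and Sox2 as higher in TKO against WT MEFs. The adipocyte sum was 596 to 1370 on the WT, 526 to 797 on the Rb1KO, 992 to 2370 on the TKO and 342 to 448 on the TKO-Ras arrays. Pparg passed as lower and Cebpa as higher in TKO MEFs against both WT and Rb1KO MEFs. Fabp4 passed as higher in TKO against Rb1KO MEFs, and Pparg and Fabp4 as lower in TKO-Ras against TKO MEFs. The part of these markers in the results was not tested.

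Of the 35 members 9 rose in TKO against WT MEFs with an adjusted p under 0.05 from limma, namely Shmt1, Shmt2, Mthfd1 and Mthfd1l of the folate cycle, Psat1 of serine synthesis, the transporters Slc1a5, Slc7a11 and Slc16a3, and Tpi1 of glycolysis. Among all genes 13.6% rose and 9.9% fell in this comparison. No member passed as lower, and 1 had an unadjusted p under 0.05 from limma, Pfkfb3. Plain linear contrasts, with no variance shared across probe sets, called 0 lower as well, while 2 (Glud1 and Got1) were lower with array weights, and 1 without WT replicate 2 (Pfkfb3) or without WT replicate 3 (Glud1). Between Rb1KO and WT MEFs 6 members rose and 3 fell, against 15.6% of all genes higher and 12.3% lower. Between TKO and Rb1KO MEFs 2 rose and 1 fell, where 5.92% of all genes were higher and 3.63% lower, and between TKO-Ras and TKO MEFs 2 rose and 3 fell, where 3.19% of all genes were higher and 4.17% lower. Most of the members are well expressed, and among the 12162 genes with a mean above background the share that rose was 19.2%, 21.3%, 8.36% and 4.24% in the order of these comparisons, and the share that fell was 13%, 16.6%, 4.82% and 5.99%. No test of the members' counts against these shares was made. The median log2 fold change of the 35 members was 0.19, 0.05, 0.05 and 0.17 in the same order, and that of all genes was 0.05, 0.08, -0.03 and 0.04. A total of 15 members passed in at least 1 comparison and 20 in none. The comparisons of TKO and Rb1KO with WT share the WT arrays, and the TKO arrays enter 3 of the 4 comparisons, so they are not independent.

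**Figure D1:**
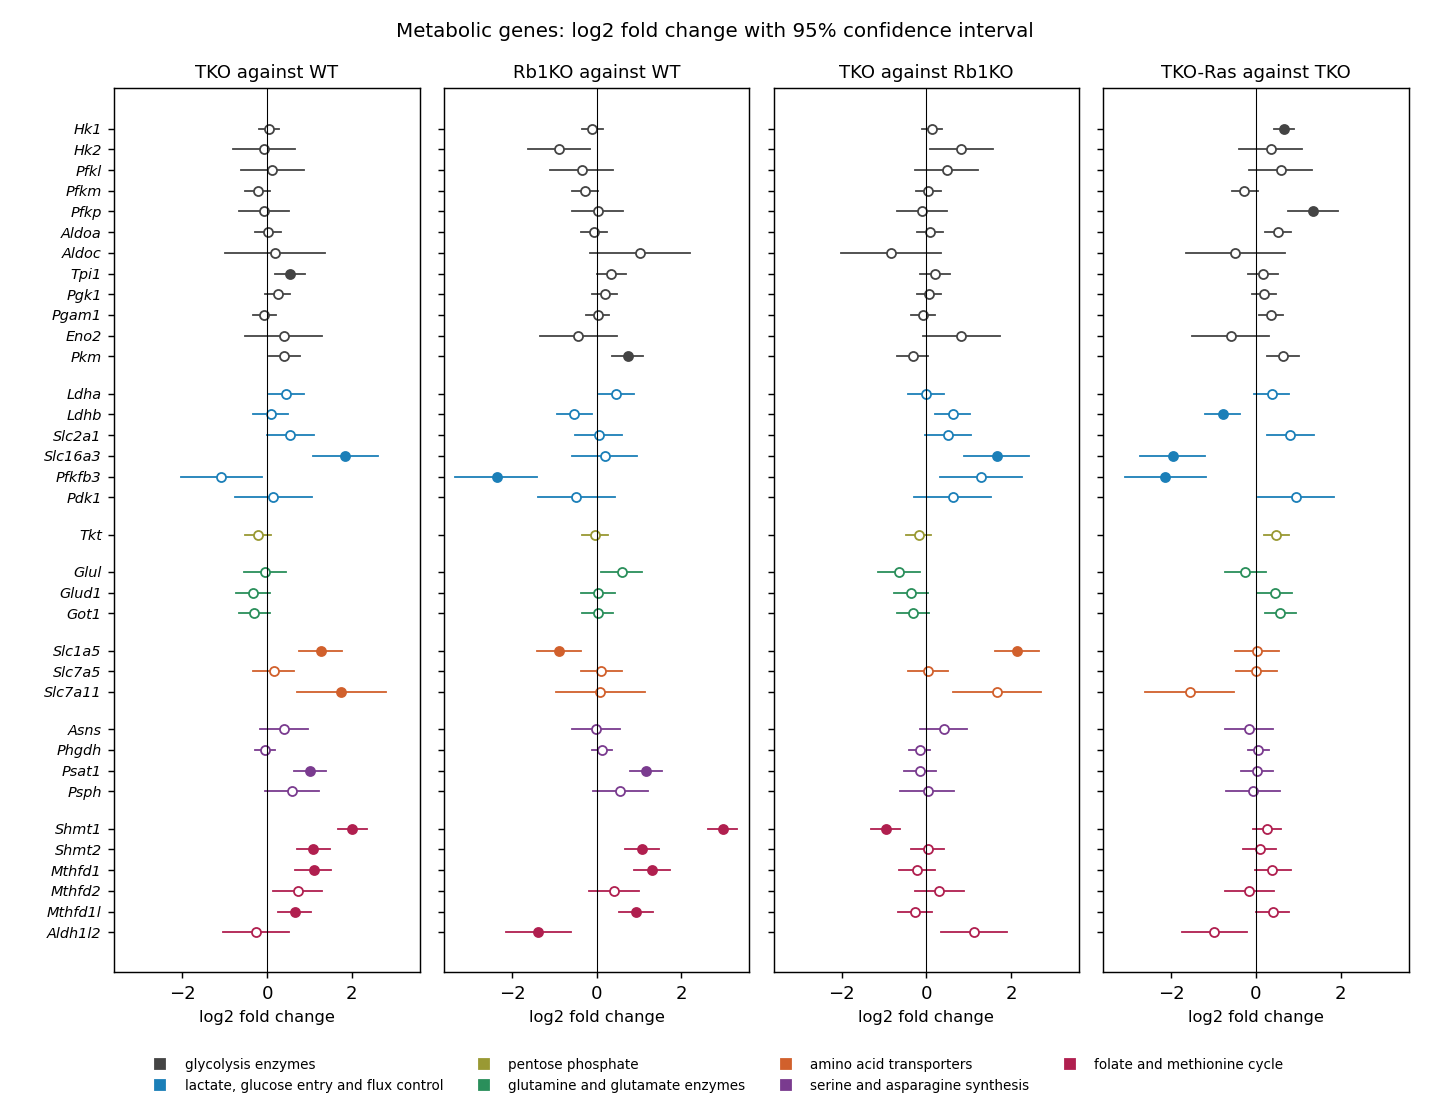
Log2 fold change of the 35 tested members (x axis) in the 4 comparisons (panels), in rows by pathway (colour). Circles are limma estimates, lines their 95% confidence intervals, and filled circles passed at an adjusted p under 0.05. The filled circles of the folate group lie right of 0 in both comparisons with WT, except Aldh1l2 in Rb1KO against WT.

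Most genes of the folate cycle were higher in both knockouts than in WT MEFs. Of the 6 measured 4 rose in TKO against WT MEFs and the same 4, Shmt1, Shmt2, Mthfd1 and Mthfd1l, rose in Rb1KO against WT MEFs, where Aldh1l2 fell. The shares over all genes were 13.6% higher in TKO, and 15.6% higher and 12.3% lower in Rb1KO against WT MEFs. Genes with a mean above background rose in 19.2% and 21.3% of cases. The median log2 fold change of the 6 genes was 0.91 and 0.99 in the comparisons of TKO and Rb1KO with WT. It was -0.09 in TKO against Rb1KO and 0.17 in TKO-Ras against TKO MEFs, and that of all genes was 0.05, 0.08, -0.03 and 0.04 in the same order. The arrays hold bulk RNA, in which fewer cells of a type and less RNA per cell cannot be told apart. Shmt1, the cytosolic enzyme that splits serine into glycine and a carbon unit on folate, changed most. Its log2 values were 7.44, 7.02 and 7.29 on the WT arrays, 10.07, 10.57 and 10.02 on the Rb1KO arrays, 9.25, 9.26 and 9.28 on the TKO arrays and 9.43, 9.69 and 9.45 on the TKO-Ras arrays. WT MEFs were lowest, TKO and then TKO-Ras MEFs followed, Rb1KO MEFs were highest, and no groups overlapped. The log2 fold change was 2.01 (standard error 0.156, adjusted p = 8.5e-06), or 4.03-fold, in TKO against WT and 2.97 (adjusted p = 5.3e-07), or 7.83-fold, in Rb1KO against WT. Shmt1 was also lower in TKO than in Rb1KO MEFs (log2 fold change -0.96, adjusted p = 0.003), the only member called lower in that comparison. All 4 of its probe sets rose in both comparisons with WT, with log2 fold changes of 0.79 to 2.01 in TKO and 0.78 to 2.97 in Rb1KO MEFs. Between TKO and Rb1KO 3 of the 4 fell, and the other one differed by 0.01 (adjusted p = 0.98).

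Shmt2, its mitochondrial counterpart, had log2 values of 9.77, 9.45 and 9.40 on the WT, 10.76, 10.48 and 10.58 on the Rb1KO, 10.41, 10.59 and 10.90 on the TKO and 10.63, 11.08 and 10.46 on the TKO-Ras arrays. The knockout groups overlapped one another and lay above every WT array. The log2 fold change against WT was 1.09 (standard error 0.179, adjusted p = 0.0013) in TKO and 1.07 (adjusted p = 0.0013) in Rb1KO MEFs. Mthfd1, the cytosolic enzyme that interconverts the carbon units carried by folate, had log2 values of 9.83, 9.64 and 8.96 on the WT, 10.92, 10.66 and 10.78 on the Rb1KO, 10.68, 10.58 and 10.47 on the TKO and 10.96, 10.79 and 11.15 on the TKO-Ras arrays. Every WT array was again the lower. The difference from WT was 1.10 (adjusted p = 0.0021) in TKO and 1.31 (adjusted p = 5.3e-04) in Rb1KO MEFs. Mthfd1l, the mitochondrial enzyme that releases formate for export, rose by 0.65 on the log2 scale in TKO (adjusted p = 0.026) and by 0.92 in Rb1KO MEFs (adjusted p = 0.0033). The lowest WT array of Mthfd1l was replicate 3, at 9.18 against 9.98 and 9.77, and without it the TKO difference was 0.42 (adjusted p = 0.047). Without TKO replicate 2 that difference was 0.55 and did not pass (adjusted p = 0.1).

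The other mitochondrial folate enzymes did not pass as higher. Mthfd2, which acts just before Mthfd1l in mitochondria, had log2 values of 10.73, 10.64 and 10.17 in WT and 11.22, 11.31 and 11.17 in TKO MEFs. These groups did not overlap, but the log2 fold change of 0.72 did not pass (adjusted p = 0.081). On the TKO-Ras arrays its values were scattered, at 10.60, 11.83 and 10.79. Aldh1l2, which burns formyl-folate to carbon dioxide and yields NADPH, had log2 values of 10.57, 10.16 and 11.19 in WT, 9.45, 8.99 and 9.35 in Rb1KO, 9.85, 10.49 and 10.82 in TKO and 9.16, 10.17 and 8.91 in TKO-Ras MEFs. It was lower on every Rb1KO array than on any WT or TKO array. Its log2 fold change in Rb1KO against WT was -1.38 (standard error 0.354, adjusted p = 0.015), and without Rb1KO replicate 2 it was -1.24 (adjusted p = 0.061). Against Rb1KO MEFs the TKO difference was 1.13 (adjusted p = 0.087). In TKO-Ras against TKO MEFs no gene of the folate cycle passed by limma, while 1 above 0 (Mthfd1l, adjusted p = 0.26) and 1 below 0 (Aldh1l2, adjusted p = 0.15) had an unadjusted p under 0.05.

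Of the 3 genes of serine synthesis, that of the middle step passed. Psat1, the aminotransferase that takes nitrogen from glutamate, had log2 values of 12, 11.68 and 11.20 on the WT, 12.85, 12.68 and 12.84 on the Rb1KO, 12.55, 12.74 and 12.66 on the TKO and 12.50, 12.85 and 12.65 on the TKO-Ras arrays. All 9 knockout arrays were above all WT arrays and overlapped with one another. The log2 fold change was 1.02 (standard error 0.174, adjusted p = 0.0017) in TKO and 1.16 (adjusted p = 5.9e-04) in Rb1KO MEFs, and its other probe set passed in both. Phgdh, the first and rate-limiting enzyme, had group means of 13.13, 13.25, 13.09 and 13.14 in WT, Rb1KO, TKO and TKO-Ras MEFs. The 95% confidence interval of its TKO against WT difference was -0.28 to 0.20 on the log2 scale, so that a change of the size of Psat1 lay outside it. Psph, the phosphatase of the last step, differed from WT by 0.59 in TKO (adjusted p = 0.2) and 0.56 in Rb1KO MEFs (adjusted p = 0.21). The TKO and WT arrays of Psph did not overlap. The 95% confidence interval of this difference was -0.05 to 1.22, so that a change of the size of Psat1 lay inside it. Asns, which makes asparagine with nitrogen from glutamine, had differences of 0.40, -0.01, 0.42 and -0.16 in the 4 comparisons, none of which passed. The median over these 4 genes was 0.49, 0.34, -0.06 and -0.03.

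**Figure D2:**
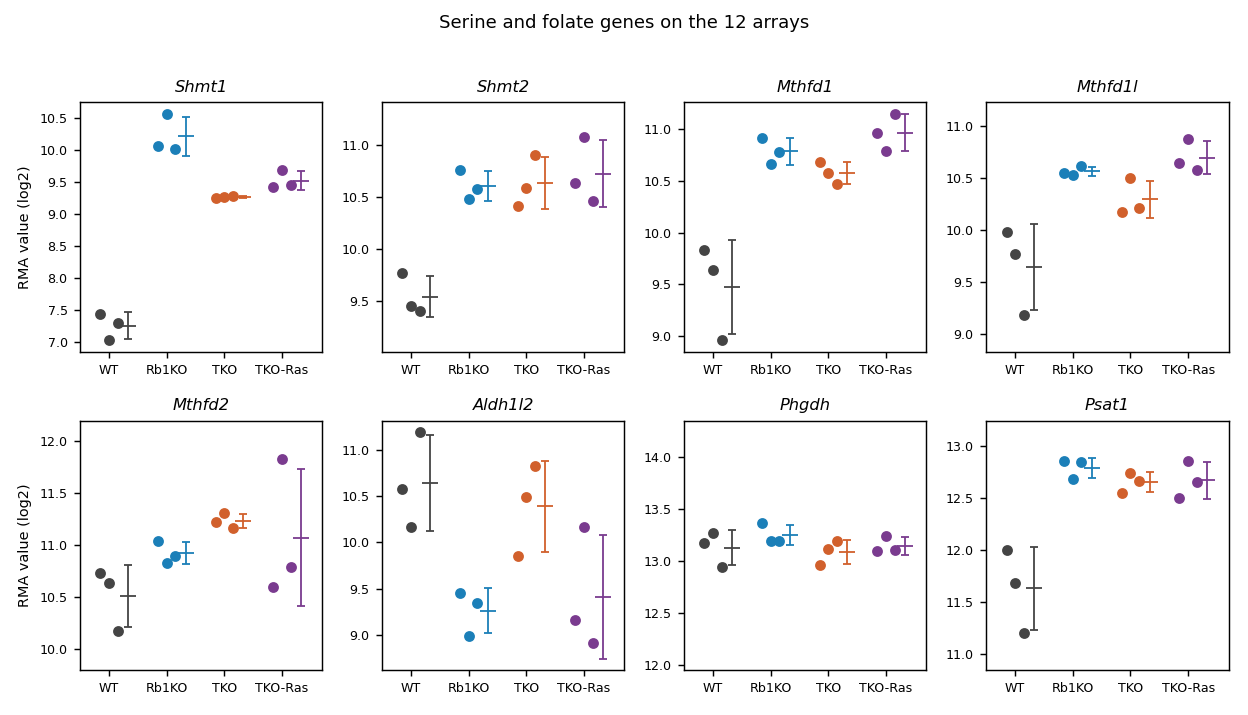
RMA value (log2, y axis; each panel has its own range) of 8 serine and folate genes on the 12 arrays, by group (x axis). Points are arrays, and the bar beside them is the mean with the SD of 3 arrays. For Shmt1, Shmt2, Mthfd1, Mthfd1l and Psat1 all WT points lie below all others, and for Aldh1l2 the Rb1KO points lie below the WT and TKO points.

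Transporters that bring glutamine and cystine into the cell were higher in TKO than in WT MEFs. Slc1a5, a sodium-dependent transporter of glutamine and other small neutral amino acids, had log2 values of 7.04, 6.37 and 7.32 on the WT, 5.86, 6.10 and 6.13 on the Rb1KO, 7.74, 8.39 and 8.39 on the TKO and 8.04, 8.38 and 8.16 on the TKO-Ras arrays. Rb1KO arrays were lowest, WT arrays intermediate and TKO arrays highest, with no overlap, and the TKO-Ras arrays lay among the TKO arrays. The log2 fold change of Slc1a5 was 1.27 (standard error 0.236, adjusted p = 0.003) in TKO against WT, -0.88 (adjusted p = 0.019) in Rb1KO against WT and 2.14 (adjusted p = 2.2e-04) in TKO against Rb1KO, a 4.42-fold difference. The fall in Rb1KO MEFs did not pass without WT replicate 1, WT replicate 3 or Rb1KO replicate 1 (log2 fold changes of -0.81, -0.67 and -0.79; adjusted p = 0.066, 0.054 and 0.071). A second probe set of Slc1a5, with group means of 5.61, 5.62, 5.67 and 6.06 in WT, Rb1KO, TKO and TKO-Ras MEFs, near background, passed in no comparison.

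Slc7a11, which exports glutamate in exchange for cystine, had log2 values of 6.47, 6.07 and 5.35 on the WT, 6.58, 5.66 and 5.91 on the Rb1KO, 6.84, 7.30 and 9.01 on the TKO and 6, 6.29 and 6.18 on the TKO-Ras arrays. The TKO arrays were above all others, and TKO replicate 3 was far above the other TKO arrays. In TKO against WT MEFs it rose by 1.75 on the log2 scale (standard error 0.477, adjusted p = 0.024), by 1.11 without TKO replicate 3 (adjusted p = 0.042), and the difference was 1.44 without WT replicate 3 (adjusted p = 0.061). On its other probe set the change in TKO was 1.31 against WT (adjusted p = 0.0057) and 1.40 against Rb1KO (adjusted p = 0.009). On the brighter probe set used here, the TKO against Rb1KO difference was 1.67 (adjusted p = 0.061) and the TKO-Ras against TKO difference -1.56 (adjusted p = 0.089). Slc7a5, which carries large neutral amino acids such as leucine, had group means of 10.81, 10.92, 10.97 and 10.98, and the 95% confidence intervals of its 4 differences lay between -0.46 and 0.63. The median over the 3 transporters was 1.27, 0.09, 1.67 and 0.01 in the 4 comparisons.

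Promoters of 37 of the 40 members, 250 bases before to 50 after each annotated start, were in the RefSeq table of GRCm38.p6. They were searched on both strands for TGATGNAA, the composite element that C/EBP and ATF factors share. It was found in 3 of the 37 members (8.11%), Slc7a11, Asns and Got1, and in 4.13% of 17491 protein-coding genes. The 150 bases before the starts of Slc7a11 and Asns are shown because they hold this element, on opposite strands at -66 and -47 in Slc7a11 and at -23 in Asns, positions being those of the element's first base counted from the start. Capitals mark TGATGNAA on either strand and, in Asns, also CACGT, which is ACGTG on the other strand, the core of the hypoxia response element.
Slc7a11 (chr3:50443614-50443763, minus strand): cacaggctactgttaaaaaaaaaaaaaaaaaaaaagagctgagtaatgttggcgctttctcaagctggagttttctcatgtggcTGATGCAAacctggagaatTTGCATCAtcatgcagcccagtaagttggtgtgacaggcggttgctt
Asns (chr6:7693210-7693359, minus strand): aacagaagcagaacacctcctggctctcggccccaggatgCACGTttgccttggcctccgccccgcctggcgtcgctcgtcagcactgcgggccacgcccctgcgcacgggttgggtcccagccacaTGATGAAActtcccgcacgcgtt
Of the 3 genes with this element Slc7a11 was called in a comparison and Asns and Got1 were not. A match is a description of letters and not of a bound site.

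The enzymes that handle glutamine and glutamate inside the cell passed in no comparison on the probe sets used here, and 1 of the 3 had an unadjusted p under 0.05 from limma in each of Rb1KO against WT and TKO against Rb1KO, and 2 in TKO-Ras against TKO. Their median log2 fold change was -0.30, 0.04, -0.37 and 0.44. Glul, glutamine synthetase, had log2 values of 9.01, 9.14 and 8.19 on the WT and 9.22, 9.46 and 9.43 on the Rb1KO arrays, which did not overlap. The difference of 0.59 did not pass (adjusted p = 0.082), while its other probe set passed with 0.69 (adjusted p = 0.042). Glud1, which turns glutamate into a Krebs cycle acid, had a TKO against WT difference of -0.33 (adjusted p = 0.25), which without WT replicate 3 was -0.59 and passed (adjusted p = 0.004). Got1, the cytosolic aspartate aminotransferase, had a TKO-Ras against TKO difference of 0.57 (adjusted p = 0.076), and the TKO-Ras arrays, at 10.42, 10.81 and 10.52, lay above the TKO arrays, at 9.85, 10.04 and 10.13. Tkt, transketolase of the pentose phosphate pathway, likewise did not overlap between these groups, with a difference of 0.48 (adjusted p = 0.074).

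Few glycolytic enzymes passed in any comparison, and those that did were higher. Of the 12 measured enzymes 1 passed in TKO against WT (Tpi1), 1 in Rb1KO against WT (Pkm) and 2 in TKO-Ras against TKO (Hk1 and Pfkp). The shares of all genes that rose were 13.6%, 15.6% and 3.19% in these comparisons. The median log2 fold changes of the 12 enzymes were 0.08, -0.03 and 0.35 there and 0.08 in TKO against Rb1KO. Over all genes the medians were 0.05, 0.08, 0.04 and -0.03 in the same order. In TKO-Ras against TKO 9 of the 12 had a difference above 0. Hk1, the widely expressed hexokinase that phosphorylates glucose, had log2 values of 9.43, 9.60 and 9.48 on the TKO and 10.24, 10.28 and 9.97 on the TKO-Ras arrays. All 9 arrays without mutated Ras lay between 9.25 and 9.60, below every TKO-Ras array. Hk1 rose in TKO-Ras against TKO MEFs by 0.66 on the log2 scale (standard error 0.111, adjusted p = 0.0052), and it passed with any 1 array left out.

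Pfkp, the platelet form of phosphofructokinase, which commits sugar to glycolysis, had log2 values of 9.06, 9.18 and 9.22 on the TKO and 10.30, 10.98 and 10.22 on the TKO-Ras arrays. The TKO-Ras arrays were the highest of the 12. Pfkp rose by 1.35 on the log2 scale (standard error 0.27, adjusted p = 0.014), or 2.55-fold, and without TKO replicate 2 it was 1.36 (adjusted p = 0.051). Its other 2 probe sets, of lower signal, had differences of 0.89 and 0.56 that did not pass. The muscle form Pfkm had a TKO-Ras against TKO difference of -0.27 (adjusted p = 0.33) and the liver form Pfkl one of 0.58 (adjusted p = 0.4), and no test of the difference between the forms was made.

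Further down the pathway, Aldoa, the main aldolase, had log2 values of 12.76, 12.98 and 12.69 on the TKO and 13.41, 13.43 and 13.16 on the TKO-Ras arrays. The groups did not overlap, but the log2 fold change of 0.53 did not pass (adjusted p = 0.053), while 3 of its other 4 probe sets passed with 0.69 to 0.71. Pkm, pyruvate kinase of muscle and growing cells, had log2 values of 11.61, 11.65 and 10.96 in WT, 12.22, 12.02 and 12.16 in Rb1KO, 11.81, 11.91 and 11.72 in TKO and 12.65, 12.38 and 12.34 in TKO-Ras MEFs. The groups followed one another in the order WT, TKO, Rb1KO and TKO-Ras without overlap, and Rb1KO against WT passed, with a log2 fold change of 0.73 (adjusted p = 0.0088). The TKO-Ras against TKO difference of 0.64 lay at the threshold, with an adjusted p that rounds to 0.05 and did not pass. It passed with an intensity trend, array weights, a replicate block, only the compared groups or cyclic loess (0.62 to 0.64, adjusted p of 0.0085 to 0.045). It also passed in the fit without dim probe sets and on the mean of its probe sets (0.64, adjusted p = 0.039 in both). The difference did not pass with the plain linear contrasts, median centring or unsuffixed probe sets, nor with any 1 TKO or TKO-Ras array left out (adjusted p of 0.084 to 0.17 for the arrays left out).

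Tpi1, triose phosphate isomerase, had log2 values of 12.57, 12.58 and 12.28 in WT and 12.85, 13.21 and 13.00 in TKO MEFs. The groups did not overlap, and the log2 fold change was 0.55 (standard error 0.159, adjusted p = 0.032). Of its other 2 probe sets 1 passed as well (0.47, adjusted p = 0.048). The call was lost without WT replicate 1, WT replicate 3, TKO replicate 2 or TKO replicate 3, with differences of 0.59, 0.45, 0.45 and 0.56 (adjusted p = 0.053, 0.087, 0.12 and 0.063). Pgk1 and Pgam1, enzymes of its later steps, had TKO against WT differences of 0.25 and -0.06 with 95% confidence intervals of -0.05 to 0.54 and -0.33 to 0.22. Hk2, the inducible hexokinase, was at 10.07, 10.55 and 8.83 on the WT and 8.88, 9.17 and 8.73 on the Rb1KO arrays, a difference of -0.89 (adjusted p = 0.084) that without WT replicate 3 was -1.39 (adjusted p = 2.6e-04). Aldoc, the brain aldolase, was above background on 9 arrays, and its Rb1KO against WT difference of 1.02 (adjusted p = 0.21) was 1.73 without WT replicate 3 (adjusted p = 0.0053). Eno2, the neuronal enolase, had differences of 0.39, -0.43, 0.83 and -0.59 that did not pass. The brightest control probe set of Gapdh, which entered no test, read 13.66 to 13.91 in WT, 13.92 to 14.06 in Rb1KO, 13.95 to 14.03 in TKO and 14.14 to 14.23 in TKO-Ras MEFs.

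**Figure D3:**
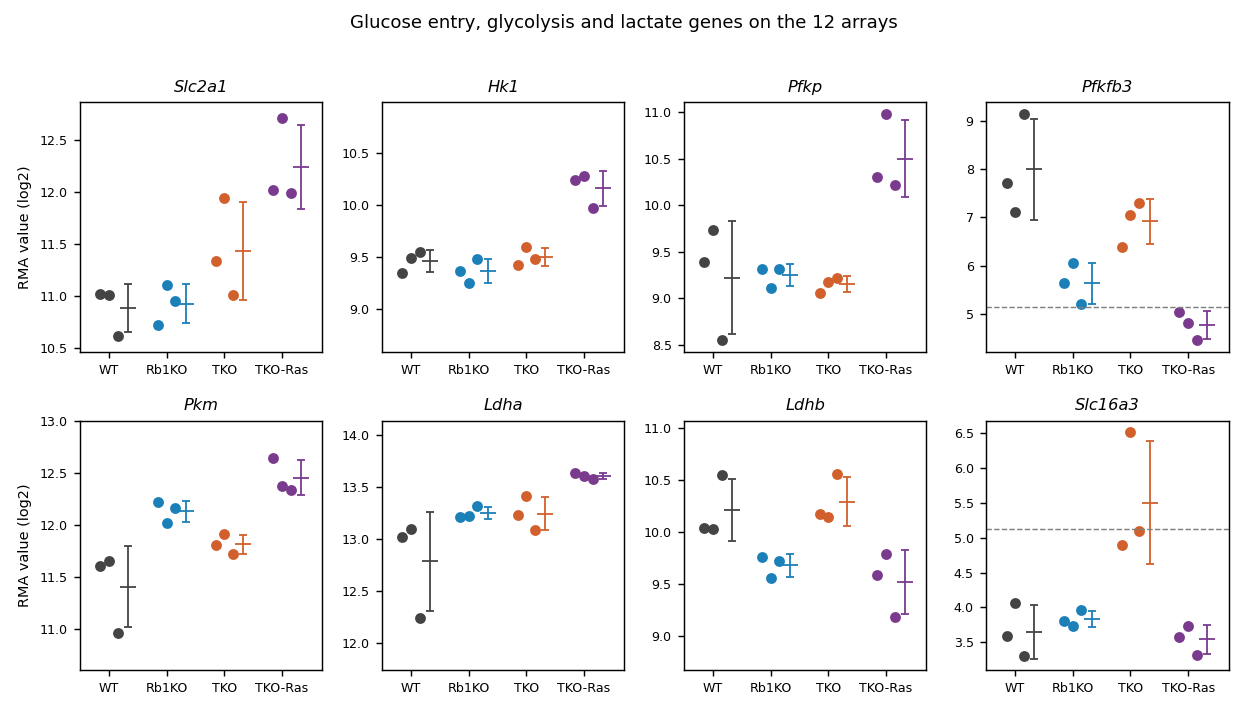
RMA value (log2, y axis; each panel has its own range) of 8 genes of glucose entry, glycolysis and lactate on the 12 arrays, by group (x axis). Points are arrays, the bar beside them is the mean with the SD of 3 arrays, and the dashed line marks the background of 5.13 where it falls in range. The TKO-Ras points lie highest for Slc2a1, Hk1, Pfkp, Pkm and Ldha, of which Hk1 and Pfkp passed against TKO. They lie lowest for Pfkfb3, and for Slc16a3 only TKO replicate 2 lies above background.

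Of 6 genes of glucose entry, flux control and lactate, 1 rose in TKO against WT (Slc16a3), 1 fell in Rb1KO against WT (Pfkfb3), 1 rose in TKO against Rb1KO (Slc16a3) and 3 fell in TKO-Ras against TKO MEFs (Ldhb, Slc16a3 and Pfkfb3). The shares of all genes that changed in these directions were 13.6%, 12.3%, 5.92% and 4.17% in the same order. The median log2 fold change of the 6 genes was 0.30, -0.22, 0.62 and -0.21 in the 4 comparisons, and that of all genes was 0.05, 0.08, -0.03 and 0.04. Pfkfb3, which makes the sugar bisphosphate that activates phosphofructokinase, had log2 values of 7.72, 7.12 and 9.15 on the WT, 5.63, 6.06 and 5.20 on the Rb1KO, 6.39, 7.06 and 7.30 on the TKO and 5.04, 4.82 and 4.45 on the TKO-Ras arrays. WT MEFs had the highest mean but overlapped with TKO MEFs, and every TKO-Ras array was at background. In Rb1KO against WT MEFs the log2 fold change was -2.36 (standard error 0.438, adjusted p = 0.0023), or 5.15-fold lower. In TKO-Ras against TKO MEFs it was at least 3.44-fold lower against the background level (adjusted p = 0.015), a call lost without TKO replicate 2, TKO replicate 3 or TKO-Ras replicate 3 (adjusted p = 0.065, 0.066 and 0.067). The TKO against WT difference of -1.08 did not pass (adjusted p = 0.12), and without WT replicate 2 it was -1.52 (adjusted p = 0.029). Its other probe set was at background in all groups.

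Slc16a3, the lactate exporter of glycolytic cells, had log2 values of 3.59, 4.06 and 3.30 on the WT, 3.81, 3.74 and 3.96 on the Rb1KO, 4.90, 6.52 and 5.10 on the TKO and 3.58, 3.73 and 3.32 on the TKO-Ras arrays. All TKO arrays were above all others, but only TKO replicate 2 exceeded background, and no bound on the fold can be given without it. The TKO mean was at least 1.29-fold higher than the background level, at or below which every array of the other groups lay, with adjusted p = 0.0032 against WT, 0.014 against Rb1KO and 0.0074 against TKO-Ras. The Rb1KO comparison did not pass without Rb1KO replicate 1 or 2 (adjusted p that rounds to 0.05, and 0.053). Ldhb, the heart form of lactate dehydrogenase, which favours pyruvate, had log2 values of 10.17, 10.14 and 10.56 on the TKO and 9.58, 9.79 and 9.18 on the TKO-Ras arrays. These did not overlap, and the Rb1KO arrays, at 9.55 to 9.76, lay in the range of the TKO-Ras arrays. The log2 fold change of TKO-Ras against TKO was -0.78 (standard error 0.187, adjusted p = 0.034), and its other 3 probe sets fell as well, by 0.77 to 0.86. Leaving out any TKO array, TKO-Ras replicate 1 or TKO-Ras replicate 3 gave -0.61 to -0.85 with an adjusted p of 0.059 to 0.13.

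Ldha, the muscle form of lactate dehydrogenase, had log2 values of 13.02, 13.10 and 12.24 on the WT, 13.21, 13.22 and 13.32 on the Rb1KO, 13.23, 13.41 and 13.09 on the TKO and 13.64, 13.61 and 13.58 on the TKO-Ras arrays. The TKO-Ras arrays were the highest, but the difference from TKO of 0.37 did not pass (adjusted p = 0.32). Slc2a1, the basal glucose transporter, had log2 values of 11.33, 11.94 and 11.01 on the TKO and 12.02, 12.71 and 11.99 on the TKO-Ras arrays, without overlap. The difference of 0.81 did not pass (adjusted p = 0.09), and it did without TKO replicate 2 (1.07, adjusted p = 0.037). Pdk1, the kinase that shuts off pyruvate dehydrogenase, had a TKO-Ras against TKO difference of 0.95 with a 95% confidence interval of 0.05 to 1.85 (adjusted p = 0.24).

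The pentamer ACGTG, the core of the hypoxia response element, was found on either strand in a promoter of 18 of the 37 members (48.6%) and of 23.2% of protein-coding genes, genes with several starts counting once if any promoter held it. The E-box CACGTG, to which Myc and Max bind and which holds ACGTG on both strands, was found in 3 members (8.11%; Pfkm, Ldha and Pfkfb3) and in 8.91% of protein-coding genes. Any of the E2F cores TTTCCCGC, TTTGGCGC and TTTCGCGC was found in 2.76% of protein-coding genes and in no member. Only these exact letters were searched, so sites that differ by a letter were not counted. At so low a share, absence from 37 members says little. The 150 bases before the starts of Slc16a3, Pfkfb3 and Ldha are shown because these genes of lactate and flux control hold ACGTG (Slc16a3 at -27 and -14, Pfkfb3 at -60 from its first start) or the E-box (Pfkfb3 at -53 from its second start, Ldha at -145 and -48). Capitals mark ACGTG or CACGT, which is the same on the other strand, and CACGTG.
Slc16a3 (chr11:120948917-120949066, plus strand): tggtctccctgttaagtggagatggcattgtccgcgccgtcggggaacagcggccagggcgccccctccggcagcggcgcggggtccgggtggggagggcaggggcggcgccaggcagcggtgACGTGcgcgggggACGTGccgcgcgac
Pfkfb3, first start (chr2:11553930-11554079, minus strand): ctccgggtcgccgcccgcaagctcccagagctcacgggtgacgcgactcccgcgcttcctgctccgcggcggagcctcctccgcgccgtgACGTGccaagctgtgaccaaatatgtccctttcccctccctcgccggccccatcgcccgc
Pfkfb3, second start (chr2:11502091-11502240, minus strand): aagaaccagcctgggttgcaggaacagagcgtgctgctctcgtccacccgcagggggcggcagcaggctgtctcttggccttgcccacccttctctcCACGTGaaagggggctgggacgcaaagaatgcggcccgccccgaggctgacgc
Ldha (chr7:46845654-46845803, plus strand): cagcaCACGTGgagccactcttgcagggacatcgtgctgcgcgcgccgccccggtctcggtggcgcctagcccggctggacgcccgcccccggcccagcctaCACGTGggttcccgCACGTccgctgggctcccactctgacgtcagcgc
All of these genes hold ACGTG, and by group mean Slc16a3 was highest in TKO, Pfkfb3 in WT and Ldha in TKO-Ras MEFs.

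Other genes of glycolysis, pyruvate and lactate, 32 measured, moved both ways: 5 rose and 5 fell in TKO against WT MEFs, and 4 rose and 4 fell in Rb1KO against WT MEFs. With 1 array left out, 1 to 3 rose and 4 to 6 fell in TKO (1 rose without TKO replicate 1, 2 without TKO replicate 2, 3 without any of the others), and 4 to 5 rose and 2 to 5 fell in Rb1KO MEFs (2 fell without WT replicate 2 or Rb1KO replicate 2). Among all genes 13.6% rose and 9.9% fell in TKO, and 15.6% rose and 12.3% fell in Rb1KO MEFs. No test of the counts of this or the following lists against such shares was made. Pdk4, a starvation-induced inhibitor of pyruvate dehydrogenase, had log2 values of 8.55, 8.86 and 8.20 on the WT, 3.61, 3.41 and 4.25 on the Rb1KO, 5.74, 4.56 and 5.88 on the TKO and 4.16, 3.95 and 4.06 on the TKO-Ras arrays. It was far higher in WT MEFs than elsewhere and at background on the Rb1KO and TKO-Ras arrays. Pdk4 fell by 3.15 on the log2 scale in TKO against WT (adjusted p = 6.0e-05), and Rb1KO MEFs were below WT MEFs by at least 10.6-fold (adjusted p = 3.1e-06). Pdk4 was higher in TKO than in Rb1KO (adjusted p = 0.01) and than in TKO-Ras MEFs (adjusted p = 0.035), by at least 1.2-fold in both, though the TKO-Ras call was lost without any 1 TKO or TKO-Ras array other than TKO replicate 2 (adjusted p of 0.087 to 0.13). Slc16a1, the widely expressed lactate and pyruvate transporter, rose by 1.52 in TKO (adjusted p = 9.4e-04) and by 1.71 in Rb1KO MEFs (adjusted p = 3.5e-04) on the log2 scale. Eno3, the muscle enolase, rose by 1.79 in TKO (adjusted p = 0.032) and 2.15 in Rb1KO MEFs (adjusted p = 0.011), with WT values that ran from 6.43 to 9.20. Without WT replicate 3 these differences were 1.06 (adjusted p = 0.036) and 1.42 (adjusted p = 0.0069), and the one in TKO MEFs did not pass without WT replicate 1 or any TKO array (1.66 to 1.99, adjusted p of 0.05 to 0.11). Slc16a7, a further lactate and pyruvate transporter close to background in WT MEFs, was lower by at least 1.08-fold in both knockouts (adjusted p = 8.5e-06 and 2.3e-05). Bpgm, which diverts a glycolytic intermediate in red cells, rose by 0.80 in TKO against Rb1KO MEFs (adjusted p = 0.02), and Slc2a6, a glucose transporter, fell by 1.01 in TKO-Ras against TKO MEFs (adjusted p = 0.021). The Bpgm call was lost without Rb1KO replicate 1 or 3 or TKO replicate 1 or 3 (0.66 to 0.82, adjusted p of 0.054 to 0.08), and that of Slc2a6 without TKO replicate 2 or 3 or TKO-Ras replicate 2 or 3 (-0.87 to -1.08, adjusted p of 0.05 to 0.084).

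Of 10 other pentose phosphate genes 5 rose and 1 fell in TKO against WT, and 3 rose and 1 fell in Rb1KO against WT. Without TKO replicate 1 the count higher in TKO was 3. Among all genes 13.6% rose and 9.9% fell in TKO, and 15.6% rose and 12.3% fell in Rb1KO MEFs. Rpia, which makes ribose phosphate, rose by 1.01 (adjusted p = 0.0014) and 1.44 (adjusted p = 1.0e-04) on the log2 scale in TKO and Rb1KO MEFs. Prps2 and Taldo1 rose by 1.10 (adjusted p = 0.0041) and 0.92 (adjusted p = 0.015) in TKO MEFs, and Prps1 rose by 1.35 in Rb1KO MEFs (adjusted p = 1.6e-04) and was lower by 0.68 in TKO than in Rb1KO MEFs (adjusted p = 0.03), the Prps enzymes turning ribose phosphate into the nucleotide precursor PRPP. Taldo1 differed by 0.57 without WT replicate 3 (adjusted p = 0.0043) and by 0.90 without TKO replicate 1, where its adjusted p rounds to 0.05 and did not pass. The fall of Prps1 passed without TKO replicate 1 but not without any 1 of the other arrays of that comparison (-0.55 to -0.71, adjusted p of 0.078 to 0.11). H6pd, the form of the oxidative pathway in the endoplasmic reticulum, fell by 1.12 in Rb1KO MEFs (adjusted p = 9.5e-04). Of 11 other glutamine and glutamate genes 5 rose and 1 fell in TKO, and 5 rose and 2 fell in Rb1KO MEFs. The count lower was 0 in TKO without TKO replicate 1 or 2, and 1 in Rb1KO MEFs without any 1 Rb1KO array. Ppat, which uses glutamine in the first step of purine synthesis, rose by 1.47 (adjusted p = 9.2e-04) and 1.70 (adjusted p = 2.9e-04). Gclc and Gclm, the subunits of the first enzyme of glutathione synthesis, rose by 1.24 (adjusted p = 0.0097) and 1.30 (adjusted p = 1.6e-04) in Rb1KO MEFs, and by 0.99 (adjusted p = 0.035) and 0.87 (adjusted p = 0.0028) in TKO MEFs. The Gclc difference in TKO MEFs was 0.58 without WT replicate 3 (adjusted p = 0.047) and did not pass without any 1 TKO array (0.95 to 1.01, adjusted p of 0.081 to 0.088). Prodh, which oxidises proline, rose by 1.11 in TKO MEFs (adjusted p = 0.0041).

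Among 16 other amino acid transporters, Slc38a4, a sodium-coupled carrier of small neutral amino acids, had log2 values of 8.02, 6.5 and 9.18 on the WT, 11.35, 11.41 and 11.74 on the Rb1KO, 11.14, 11.12 and 10.92 on the TKO and 9.36, 9.60 and 9.87 on the TKO-Ras arrays. WT arrays were lowest and widely spread, and TKO-Ras arrays intermediate. It rose by 3.16 in TKO (adjusted p = 8.6e-04) and 3.6 in Rb1KO MEFs (adjusted p = 2.9e-04). Against WT MEFs 2 of the 16 rose and 1 fell in TKO, and 1 rose and 2 fell in Rb1KO MEFs. The count lower was 0 in TKO without TKO replicate 1 and 0 in Rb1KO MEFs without Rb1KO replicate 2. The shares over all genes were 13.6% higher and 9.9% lower in TKO, and 15.6% higher and 12.3% lower in Rb1KO MEFs. In TKO-Ras against TKO MEFs 3 of the 16 fell, the cationic amino acid transporters Slc7a2 (log2 fold change -4.43, adjusted p = 1.9e-04) and Slc7a3 (-2.63, adjusted p = 0.0048) and the glutamine carrier Slc38a2 (-0.64, adjusted p = 0.035). Among all genes 4.17% fell in this comparison. Slc38a2 did not pass without TKO replicate 2 or 3 or TKO-Ras replicate 1 or 2 (-0.49 to -0.67, adjusted p of 0.091 to 0.12). Slc38a1, a glutamine carrier, rose by 1.16 in TKO against WT (adjusted p = 0.0035), and Slc1a4, the closest relative of Slc1a5, fell by 0.87 in TKO and 0.85 in Rb1KO MEFs (adjusted p = 0.015 in both). Slc7a3 also fell in Rb1KO against WT MEFs, by 1.59 (adjusted p = 0.021). That call was lost without WT replicate 1, WT replicate 2 or Rb1KO replicate 2 (-1.33 to -1.49, adjusted p of 0.062 to 0.087), and the calls of Slc1a4 were lost without TKO replicate 1 (-0.74, adjusted p = 0.068) and without Rb1KO replicate 2 (-0.76, adjusted p = 0.059). Of 24 other folate, glycine and methionine genes 6 rose in TKO and 8 in Rb1KO against WT MEFs, and the rest did not pass. The count was 4 to 7 in TKO and 5 to 8 in Rb1KO MEFs with 1 array left out (5 without Rb1KO replicate 1 or 2, and 4 in TKO and 6 in Rb1KO MEFs without WT replicate 3). Among all genes 13.6% rose in TKO and 15.6% in Rb1KO MEFs, and among genes with a mean above background 19.2% and 21.3%. Tyms, which makes thymidylate, was read from a probe set that was dim in all groups, with log2 values of 4.04 to 6.36. On this probe set WT MEFs were at background, and TKO and Rb1KO MEFs were higher by at least 2.02-fold and 1.73-fold (adjusted p = 1.0e-04 and 2.0e-04). Tyms fell by 0.87 in TKO-Ras against TKO MEFs (adjusted p = 0.03), but not without TKO replicate 1 or 2 or TKO-Ras replicate 2 or 3 (-0.64 to -0.95, adjusted p of 0.056 to 0.12). Gart, of purine synthesis, rose by 0.97 in Rb1KO MEFs (adjusted p = 0.0035), and Dld, a subunit shared by several mitochondrial enzyme complexes, rose by 0.75 in TKO MEFs (adjusted p = 0.045). The Dld call was lost without WT replicate 1, WT replicate 3, TKO replicate 1 or TKO replicate 2 (0.58 to 0.80, adjusted p of 0.079 to 0.16). Ahcy, which clears the by-product of methylation, rose by 1.02 (adjusted p = 8.9e-04) and 1.25 (adjusted p = 1.9e-04). Cth, which makes cysteine from cystathionine, was higher in TKO than in Rb1KO MEFs by 1.94 (adjusted p = 0.046), as was Mat2b, a subunit of the enzyme that makes the methyl donor, by 0.74 (adjusted p = 0.0071), while Gcsh of the glycine cleavage system was lower by 0.76 (adjusted p = 0.0057). For Cth the difference passed without TKO replicate 1 but not without any 1 of the other TKO or Rb1KO arrays (1.67 to 2.03, adjusted p of 0.099 to 0.15). Ggh, which trims folate chains, rose by 1.45 in TKO-Ras against TKO MEFs (adjusted p = 1.6e-04).

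Of 21 regulators of these pathways, Mycn, a Myc family factor, had log2 values of 6.66, 6.63 and 6.58 on the TKO and 13.07, 13.39 and 13.09 on the TKO-Ras arrays, and rose by 6.56 on the log2 scale (adjusted p = 1.8e-10). Every TKO-Ras array was far above the 9 other arrays. Myc itself was at 9.75, 9.57 and 7.32 on the WT and 10.35, 10.94 and 10.07 on the Rb1KO arrays, a difference of 1.58 (adjusted p = 0.047), and WT replicate 3 was the low array. Without that array it was 0.80 (adjusted p = 0.037), and without any 1 Rb1KO array it did not pass (1.33 to 1.77, adjusted p of 0.067 to 0.16). Txnip, which restrains glucose uptake and is induced by glucose, fell in TKO (-1.28, adjusted p = 0.0058) and Rb1KO MEFs (-2.49, adjusted p = 6.2e-05) against WT, and in TKO-Ras against TKO MEFs (-1.93, adjusted p = 0.0016), and it was higher in TKO than in Rb1KO MEFs (1.21, adjusted p = 0.018). This last call was lost without Rb1KO replicate 1, TKO replicate 2 or TKO replicate 3 (1.06 to 1.13, adjusted p of 0.07 to 0.083). Hif1a, the inducible subunit of the hypoxia factor, was lower in Rb1KO than in WT (-0.72, adjusted p = 0.022) and higher in TKO than in Rb1KO MEFs (1, adjusted p = 0.0098), and its relative Epas1 was at background in Rb1KO MEFs, lower than in WT MEFs by at least 5.14-fold (adjusted p = 0.0011). The Hif1a fall did not pass without WT replicate 1, WT replicate 2, Rb1KO replicate 1 or Rb1KO replicate 2 (-0.60 to -0.73, adjusted p of 0.054 to 0.09). Nfe2l2, the oxidative stress factor whose targets include Slc7a11, Gclc and Gclm, had log2 values of 10.46, 10.15 and 10.53 on the WT and 11.46, 11.74 and 11.51 on the TKO arrays, a rise of 1.19 (adjusted p = 1.7e-04), and was higher by 0.87 in TKO than in Rb1KO MEFs (adjusted p = 0.0035). Atf4 rose by 0.63 in TKO against WT MEFs (adjusted p = 0.041), a call lost without any 1 of the 6 arrays compared (0.53 to 0.71, adjusted p of 0.058 to 0.12), and Eif2ak3, a kinase upstream of it, fell by 0.93 (adjusted p = 6.0e-04).

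Of 17 hypoxia-induced genes 8 fell and 1 rose in Rb1KO against WT, with a median log2 fold change of -0.95 against 0.08 over all genes. In TKO against WT 3 fell and 2 rose (median 0.08), and in TKO against Rb1KO MEFs 5 rose and 16 of 17 were above 0 (median 0.83 against -0.03). With 1 array left out, 7 to 9 fell in Rb1KO against WT, 1 to 3 fell and 1 rose in TKO against WT (1 fell without TKO replicate 1 and 2 without WT replicate 1), and 1 to 3 rose in TKO against Rb1KO MEFs, with a median of 0.62 to 0.97. Among all genes 15.6% rose and 12.3% fell in Rb1KO against WT, and 13.6% rose and 9.9% fell in TKO against WT. In TKO against Rb1KO MEFs 5.92% of all genes rose. Mif, which rose in Rb1KO MEFs, passed without WT replicate 1 but not without any 1 of the other arrays compared (0.23 to 0.32, adjusted p of 0.083 to 0.15). Adm, a secreted peptide, fell by 4.83 in Rb1KO (adjusted p = 3.8e-04) and 2.86 in TKO MEFs (adjusted p = 0.012) against WT, and the collagen-modifying enzymes Plod2 and P4ha1 fell by 2.20 (adjusted p = 6.9e-04) and 1.73 (adjusted p = 0.0019) in Rb1KO MEFs. Plod2 also fell in TKO against WT MEFs (-1.45, adjusted p = 0.011), where Ndrg1 rose (1.73, adjusted p = 0.048). Without TKO replicate 1 the Adm difference in TKO MEFs was -2.29 (adjusted p = 0.053), and the Ndrg1 call was lost without any 1 of the 6 arrays (1.49 to 2.01, adjusted p of 0.058 to 0.15). Bnip3, Ddit4 and P4ha2 were higher in TKO than in Rb1KO MEFs by 1.87 (adjusted p = 0.038), 1.75 (adjusted p = 0.025) and 1.72 (adjusted p = 0.0038). Bnip3 did not pass without any 1 TKO array, Rb1KO replicate 1 or Rb1KO replicate 2 (1.40 to 2.06, adjusted p of 0.059 to 0.15), nor Ddit4 without Rb1KO replicate 2, TKO replicate 2 or TKO replicate 3 (1.22 to 1.67, adjusted p of 0.051 to 0.099). P4ha2 fell (-1.19, adjusted p = 0.035) and Car12, a carbonic anhydrase, rose (1.37, adjusted p = 0.0037) in TKO-Ras against TKO MEFs. That P4ha2 call was lost without TKO replicate 2 or 3 or TKO-Ras replicate 1 or 3 (-0.87 to -1.23, adjusted p of 0.088 to 0.13).

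Of 21 genes of the integrated stress response, which acts through Atf4, 5 rose in TKO against WT, 4 fell in Rb1KO against WT, and 5 rose in TKO against Rb1KO MEFs, where all 21 had a difference above 0 (median 0.48). In TKO-Ras against TKO MEFs 18 of the 21 had a difference below 0 (median -0.41 against 0.04 over all genes), 1 rose and 2 fell. With 1 array left out, 4 to 5 rose in TKO against WT, 3 to 5 fell in Rb1KO against WT, and 1 to 4 rose in TKO against Rb1KO MEFs (4 without TKO replicate 1, 1 or 2 otherwise). In TKO-Ras against TKO 9 fell without TKO-Ras replicate 2, and 0 or 1 without any 1 of the other arrays compared. Among all genes 13.6% rose in TKO and 12.3% fell in Rb1KO against WT. In TKO against Rb1KO MEFs 5.92% of all genes rose, and in TKO-Ras against TKO MEFs 3.19% rose and 4.17% fell. Nupr1, a stress-induced cofactor, fell by 3.82 in Rb1KO against WT (adjusted p = 6.6e-04) and was higher by 2.37 in TKO than in Rb1KO MEFs (adjusted p = 0.031). Vldlr, a lipoprotein receptor, and Sesn2, an inhibitor of growth signalling, fell in Rb1KO against WT (-2.02 and -1.05, adjusted p = 0.013 and 0.032) and were higher in TKO than in Rb1KO MEFs (1.96 and 1.24, adjusted p = 0.039 and 0.037). The TKO against Rb1KO calls of Nupr1 and Vldlr were lost without any 1 of the 6 arrays (2.01 to 2.63, adjusted p of 0.051 to 0.12, and 1.80 to 2.15, adjusted p of 0.062 to 0.12). Sesn2 was higher there by 0.78 without Rb1KO replicate 2 (adjusted p = 0.04) and did not pass without Rb1KO replicate 3, TKO replicate 2 or TKO replicate 3 (1.12 to 1.36, adjusted p of 0.066 to 0.12). Its difference from WT was -0.60 without Rb1KO replicate 2 (adjusted p = 0.051) and did not pass without any 1 WT array (-1.04 to -1.07, adjusted p of 0.05 to 0.075). Atf3, Cebpb and the hormone gene Fgf21 rose by 1.80 (adjusted p = 0.012), 1.43 (adjusted p = 0.0018) and 1.41 (adjusted p = 0.037) in TKO against WT. Fgf21 did not pass without WT replicate 2, WT replicate 3, TKO replicate 2 or TKO replicate 3 (0.94 to 1.54, adjusted p of 0.063 to 0.11). Cebpb and Xbp1 fell in TKO-Ras against TKO MEFs (-1.14 and -0.67, adjusted p = 0.02 and 0.029). Cebpb did not pass without TKO replicate 2 or 3 or TKO-Ras replicate 1 or 3 (-0.97 to -1.07, adjusted p of 0.083 to 0.085), nor Xbp1 without any 1 TKO array or TKO-Ras replicate 3 (-0.64 to -0.72, adjusted p of 0.064 to 0.1). Stc2, a secreted glycoprotein, rose by 1.05 in TKO against Rb1KO (adjusted p = 2.9e-04) and by 0.88 in TKO-Ras against TKO MEFs (adjusted p = 0.0015).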

How the data were processed

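Total RNA (100 ng) of 12 MEF samples was labelled and hybridised to Affymetrix MOE430 2.0 arrays. The authors processed the scans with RMA (background correction, quantile normalization and a summary over probes) in Partek 6.5, per the submitters' notes on processing and the study's methods. The deposited table gives RMA values on the log2 scale, made by the authors from the scans, for 45101 probe sets, without stating that scale. It was read from their range (2.18 to 14.92, array medians 5.34 to 5.41). RMA forces equal distributions on the arrays, so a change shared by most genes would not show.

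The 64 control probe sets were left out. Of the other 45037, 34945 carried 1 gene symbol, 932 several (not used) and 9160 none in the annotation used. Symbols were matched to the platform annotation, then through gene numbers and synonyms of RefSeq GRCm38.p6. One linear model over all 12 arrays, with 4 contrasts and 8 residual degrees of freedom, was fitted and moderated by limma 3.58.1 (R 4.3.3). P-values were 2-sided and adjusted by Benjamini-Hochberg over all 45037 probe sets, and every adjusted p given is from limma. Shares of all genes use 1 probe set per gene. A group at or below background on every array gives a bound, computed against the background level. The fit was tested on simulated data. The number of arrays limits the precision.

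All members are named, and of each other list up to 3 called genes per comparison with the largest change, no overlap and a higher mean above background. The deleted genes, Mycn and Myc are named as well, and Atf4 was added after its value was seen. The members and lists were chosen with earlier results of these data known. Motifs were searched on both strands of RefSeq promoters. Figures were drawn with matplotlib 3.10.9.

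Results were recomputed with a mean-variance trend and robust priors, with the plain linear contrasts of the methods, with weights per array, with replicate number as a blocking factor, on the compared groups alone, after median centring or cyclic loess, on probe sets exceeding background in at least 3 arrays, on the average over each gene's probe sets, on unsuffixed probe set names, and with each array left out. Background was also set at other percentiles.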

Additional observations from a re-analysis of the deposited data

How the results depend on the processing

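The 26 calls of members gave 406 values under the alternatives. Of these 370 passed in the same direction, 36 did not pass and 0 were reversed, and 17 calls passed under every alternative. Of 1786 values of members not called, 54 passed. The cause of the changes below was not tested.

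The count of members higher in TKO against Rb1KO (2) was 1 with the contrasts of the methods, 7 with array weights, 6 with only the groups compared, 4 with the mean of all probe sets, and 1 to 3 with an array left out (1 without Rb1KO replicate 1 or 2, 3 without TKO replicate 1). The count lower there (1) was 2 with array weights and with only the groups compared. The count lower in TKO against WT (0) was 2 with array weights (Glud1 and Got1) and 0 to 1 with an array left out (1 without WT replicate 2 or 3, Pfkfb3 and Glud1). The count lower in Rb1KO against WT (3) was 1 with the contrasts of the methods and 2 to 3 with an array left out (2 without WT replicate 1, Rb1KO replicate 1 or Rb1KO replicate 2). Without WT replicate 3, 7 members were higher in TKO and 7 in Rb1KO against WT (9 and 6 with it).

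In TKO-Ras against TKO the count higher (2) was 4 with the intensity trend, the background filter and the mean of probe sets, 1 with the contrasts of the methods and with probe sets without a suffix (24 members tested), 6 with array weights, 5 with the replicate block, and 3 without TKO replicate 3. The count lower (3) was 1 with the contrasts of the methods, 5 with array weights and 1 to 4 with an array left out (1 without TKO replicate 2, TKO replicate 3 or TKO-Ras replicate 3, 2 without TKO-Ras replicate 1, 4 without TKO-Ras replicate 2). Same-numbered arrays did not deviate together throughout (correlations of -0.235 to 0.247), so the replicate numbers were not taken as pairs. With the block the other counts stayed within 1.5 times.

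With the median of the olfactory receptor probe sets background would be 3.84, and with their 99th percentile 5.82, against 5.13. Near these values Slc16a3, Aldoc, Tyms and Pfkfb3 are limited by signal over background.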
